A study of Mus musculus with 12 samples.

Results

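Immediate early response genes were examined in maps of MOF binding from visceral white adipose tissue. MOF, also named KAT8, is an acetyltransferase that modifies lysines of histone H4. The 10 genes Fos, Fosb, Jun, Junb, Jund, Egr1, Ier2, Atf3, Dusp1 and Btg2 were chosen by name, out of 21938 protein-coding genes on chromosomes 1 to 19, X and Y in the GENCODE mouse M21 annotation. A peak was assigned to a gene if it touched the gene body or came within 3 kb of any annotated start site. By this rule the 10 genes held 20 of 19773 peaks in Mof+/+ mice and 1 of 731 peaks in Mof+/- mice.

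Mof+/+ animals carried both alleles of Mof, and Mof+/- animals had lost 1 allele in every cell. Both groups were labelled C57BL/6, were 8 weeks old and had a standard diet, and the methods describe backcrossing to C57BL/6J. Chromatin immunoprecipitation with a MOF antibody was compared with input DNA, and 2 MOF libraries were labelled for each genotype. The MOF antibody in the labels is not among those in the reporting summary, so which antibody made the peaks is uncertain. Each genotype was represented by 1 list of peaks that names no library. The design text of the series mentions 2 control and 3 Mof+/- animals, whereas the reporting summary speaks of 2 littermates per genotype. The methods describe merging peaks that lie within 1000 bp, but the lists still held neighbouring peaks closer than that, and they do not show whether peaks were called on single or pooled libraries. The values below come from these lists, which give no spread between animals, so no difference between the genotypes was tested. The signal of the single libraries was not analysed here. Nuclei came from minced tissue that had been dissociated, strained and freed of residual fat, with no sorting by cell type described, so fewer cells of a type and less MOF per cell cannot be told apart.

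Immediate early genes are switched on within minutes of a growth factor, hormone or stress signal, from transcription machinery that is already in place, and most of their RNAs decay quickly. MAP kinases and cAMP signalling reach them through serum response factor, which binds CArG elements, and through CREB, which binds cAMP response elements (CRE). FOS and JUN proteins pair to form the transcription factor AP-1. The genes are short and several have no intron. They are also known to be induced while tissue is taken out and minced.

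Sequence upstream of the start site is shown for 6 of the genes: Fos, Jund, Ier2 and Dusp1 as examples with a CRE or its core close to the start, Junb for its TATA box and because it alone had a peak in both genotypes, and Jun because its start site lay between peaks. Other members hold such elements too, as listed after the sequences. Start sites are those of the principal transcript, and position −1 is the base before it. Each run covers positions −120 to −1, read 5′ to 3′ on the strand of the gene, from GRCm38. Capitals mark the CRE TGACGTCA or its core TGACG and the TATA box TATAAA, on either strand.
Fos (chr12:85473770-85473889, plus strand): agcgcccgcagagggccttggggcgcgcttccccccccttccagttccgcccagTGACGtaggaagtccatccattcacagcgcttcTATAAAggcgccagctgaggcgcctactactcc
Jun (chr4:95052223-95052342, minus strand): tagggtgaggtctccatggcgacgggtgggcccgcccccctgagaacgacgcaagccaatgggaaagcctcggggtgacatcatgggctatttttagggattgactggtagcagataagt
Junb (chr8:84978719-84978838, minus strand): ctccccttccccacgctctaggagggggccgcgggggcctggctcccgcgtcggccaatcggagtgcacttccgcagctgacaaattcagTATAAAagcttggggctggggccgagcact
Jund (chr8:70698829-70698948, plus strand): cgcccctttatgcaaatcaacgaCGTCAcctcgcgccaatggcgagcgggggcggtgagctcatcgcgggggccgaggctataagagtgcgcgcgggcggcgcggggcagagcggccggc
Ier2 (chr8:84662853-84662972, minus strand): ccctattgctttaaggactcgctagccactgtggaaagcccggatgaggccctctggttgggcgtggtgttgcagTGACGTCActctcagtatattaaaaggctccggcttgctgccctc
Dusp1 (chr17:26508520-26508639, minus strand): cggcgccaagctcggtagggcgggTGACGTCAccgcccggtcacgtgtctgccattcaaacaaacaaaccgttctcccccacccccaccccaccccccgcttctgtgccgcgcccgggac

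In the 300 bp before the start site, 4 of the 10 genes held the whole CRE: Jund at −214 to −207, Btg2 at −201 to −194, Dusp1 at −96 to −89 and Ier2 at −45 to −38. These sites lay inside Mof+/+ peaks, and the share of such sites inside peaks over all genes was not computed. Of all protein-coding genes 2.13% held this element in the same window, and of those with a Mof+/+ peak 2.93%. The core TGACG, which is also part of the whole element, was found in 8 of the 10, with Jun and Atf3 lacking it, against 21.9% of protein-coding genes and 30.4% of those with a Mof+/+ peak. Not all core sites lay in peaks: that of Egr1 at −119 to −115 and one of Fos at −292 to −288 were outside. TATAAA was found at −33 to −28 in Fos and −30 to −25 in Junb, and in 13.6% of protein-coding genes (7.72% of those with a Mof+/+ peak). The AP-1 site TGANTCA, where N is any base, was in 0 of the 10 windows, in 6.99% of all and in 4.65% of those of genes with a Mof+/+ peak. A match describes letters in a window and does not show that a factor sits there.

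The CArG element was in 1 of the 10 windows, that of Fosb at −266 to −257, against 1.57% of protein-coding genes and 1.39% of those with a Mof+/+ peak. In a window of 500 bp, chosen after the first was searched, the CArG element of Fos was found as well, at −309 to −300, and 2.66% of protein-coding genes had a match. In the same 500 bp the core TGACG was in 9 of the 10, now with Jun, against 28.2%, the AP-1 site in 1, Fos at −462 to −456 outside its peaks, against 11.9%, the CRE still in 4, against 2.39%, and TATAAA in 2, against 23.3%. Fosb's element lay inside its peak, but that of Fos fell in a stretch of 335 bp between the 2 peaks of the gene. It is shown with its flanks, the element in capitals.
Fos (chr12:85473571-85473600, plus strand, positions −319 to −290): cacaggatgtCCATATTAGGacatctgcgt

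All 10 genes had a peak in the Mof+/+ list. By the same rule 9773 protein-coding genes, or 44.5%, had one, and they are called bound genes here. In most members the start site was covered: 8 of 10 principal start sites lay inside a Mof+/+ peak, against 25.0% of protein-coding genes. That share is 5490 genes, all of them among the 9773 bound genes. Several peaks per gene were common: 3 genes had 1 peak, 4 had 2 and 3 had 3. So 7 had at least 2, compared with 17.5% of protein-coding genes, or 3831, again all bound genes. As all 10 members are bound, the 9773 bound genes are the closer comparison. These counts describe a named list beside the background and carry no test.

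**Figure D1:**
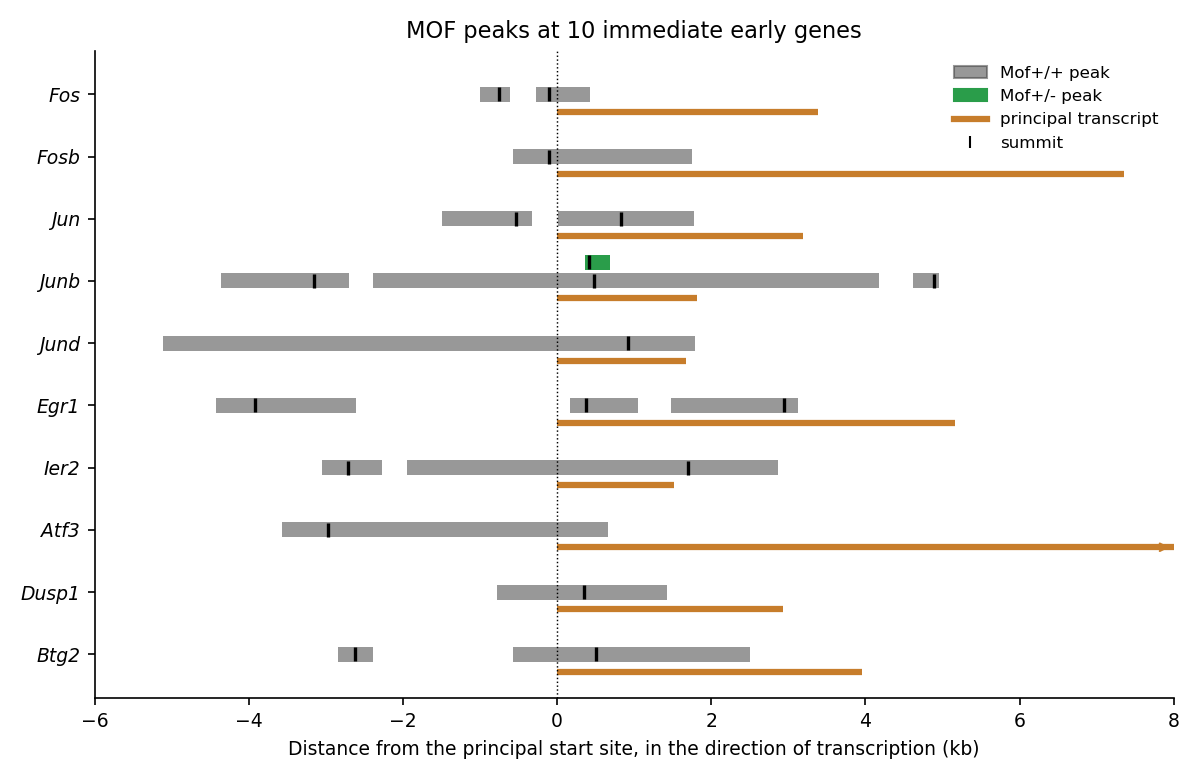
Position of MOF peaks at the 10 genes, in kb from the principal start site along the direction of transcription, with summits as ticks and transcripts as orange lines. Peaks of Junb, Jund and Ier2 ran past both ends of the principal transcript, Jun's start site fell between peaks, and the single Mof+/- peak (green) sat in Junb. The 2 peaks of Dusp1 at −23882 and −52594 bp are outside the range drawn, and the line of Atf3 continues to 13045 bp.

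Fos encodes the founding partner of JUN in AP-1 and is the classic serum-induced gene (chr12:85473890-85477273, 3384 bp). Its 2 Mof+/+ peaks were narrow and sat at the promoter. The stronger one (chr12:85473617-85474311, 695 bp) had a fold enrichment of 4.87, and its summit lay at −100 bp. The other (chr12:85472887-85473281, 395 bp) reached 4.65 with its summit at −757 bp. Fold enrichment is the ratio of fragments over the summit to the caller's background, with a pseudocount of 1. At both Fos peaks that background was 3.52 fragments, the lowest in the Mof+/+ list. Only 12.5% of the gene lay inside a peak, so most of the transcribed part of Fos was outside the mapped enrichment.

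Fosb, a relative of Fos, is the longest member without a distant start site (chr7:19302696-19310051, 7356 bp). It had 1 peak of 2327 bp (chr7:19308297-19310623) with a fold enrichment of 4.09, the lowest among the strongest peaks of the 10 genes. Its summit at −99 bp matched that of Fos in place. The peak ran 1754 bp into the gene and covered 23.9% of it.

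Jun encodes the other partner of AP-1 and has no intron (chr4:95049034-95052222, 3189 bp). It showed 1 peak on each side of its start site. The upstream peak (chr4:95052554-95053722, 1169 bp) had the higher fold enrichment, 5.53, with the summit at −530 bp. The downstream peak (chr4:95050444-95052210, 1767 bp) had a fold enrichment of 2.89 over a higher background, 6.96 fragments against 3.52, and its summit lay at 823 bp in the 5′ UTR. The fragments over the 2 summits were close, 22 and 24. Between the peaks was a gap of 343 bp, from −331 to 11 bp, which included the start site and the whole stretch of Jun sequence printed above. Such a gap of at most 1000 bp around the start site was found in 2.37% of protein-coding genes. It was searched for after the peaks of Jun had been seen. Chromatin was cut in part with CviKI-1, an enzyme with the recognition site RGCY (R being A or G and Y being C or T), and the gap held 37.9 RGCY sites per kb, above the range of 10.8 to 30.9 in the 20 peaks of the members. Other gaps between neighbouring peaks of the members ranged from 19.8 per kb at Btg2 to 48.1 at Junb, and the gap over the start site of Egr1 held 22.0. The bearing of the cutting sites on the gaps was not tested. The antisense gene Junos has start sites inside both peaks, and peaks have no strand.

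Junb, a JUN relative that also restrains AP-1 in some settings, was the only member with a peak in both genotypes (chr8:84974484-84978718, 4235 bp, with a principal transcript of 1809 bp and no intron). Its main Mof+/+ peak (chr8:84974539-84981106) was 6568 bp wide, had a fold enrichment of 5.03 and peaked at 476 bp, in the coding sequence. It contained the whole principal transcript and 98.7% of the annotated gene. A peak on the upstream side (chr8:84981419-84983075) had a fold enrichment of 4.09, and one beyond the end of the gene (chr8:84973765-84974105) had 3.32. The last lies within the neighbouring gene Prdx2, a peroxide-reducing enzyme, whose end the main peak also touched.

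Jund, the JUN relative that is made steadily rather than in bursts, had the strongest peak of all members (chr8:70698949-70700616, 1668 bp, no intron). It was a single peak of 6898 bp (chr8:70693837-70700734) with a fold enrichment of 8.18 and a summit at 924 bp in the coding sequence. Of the bound genes, 99.3% had a weaker strongest peak and 99.4% a narrower one. The peak began 5112 bp before the start site, at −5112, and ended at 1785 bp, past the end of the gene. The antisense gene Gm11175 lies inside the same peak.

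Egr1 encodes a zinc-finger transcription factor induced by growth factors (chr18:34859823-34864984, 5162 bp). Like Jun it had no peak over its start site, but the uncovered stretch was wider, 2779 bp from −2608 to 170 bp. The nearest peak (chr18:34859994-34860868, 875 bp) began just past the start, with a fold enrichment of 4.83 and a summit at 372 bp in the 5′ UTR. A second within the gene (chr18:34861299-34862954) had 4.42 and a summit in the coding sequence, and an upstream one (chr18:34855395-34857214) had 3.44. Together the peaks covered 49.0% of Egr1. Its start site region had 42 CpG sites within 500 bp on either side, the fewest of the 10 genes.

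Ier2, a small intronless gene for a nuclear protein of the early response, was covered from end to end (chr8:84661331-84662852, 1522 bp). The peak (chr8:84659984-84664794) was 4811 bp wide with a fold enrichment of 6.00, and its summit, at 1704 bp, was already beyond the end of the transcript. A weaker peak of 785 bp (chr8:84665120-84665904) had a fold enrichment of 3.09 and covered the start of the lincRNA gene Gm26664.

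Atf3, a stress-induced factor of the ATF/CREB family, is long because of a distant start site (chr1:191170296-191218039, 47744 bp). Its 1 peak (chr1:191182686-191186912, 4227 bp) had a fold enrichment of 5.09. The peak covered the principal start site, yet its summit lay far upstream at −2979 bp, in an intron of a longer transcript. It was the most distant of the strongest summits from its start site.

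Dusp1 encodes a phosphatase that switches MAP kinases off, and Btg2 a growth-arrest factor that promotes RNA decay. At Dusp1 (chr17:26505590-26562128, 56539 bp) the main peak (chr17:26507096-26509299, 2204 bp) had a fold enrichment of 5.74 with its summit at 350 bp in the coding sequence. It covered 48.6% of the principal transcript of 2930 bp. Weaker peaks lay at a distance along a longer transcript, with a fold enrichment of 3.94 at −23882 bp (chr17:26531862-26533525) and 3.42 at −52594 bp (chr17:26561071-26561349). At Btg2 (chr1:134075170-134079120, 3951 bp) the main peak (chr1:134076615-134079692, 3078 bp) had a fold enrichment of 6.46, the second highest of the members, with its summit at 504 bp in the intron. The upstream peak of Btg2 (chr1:134081509-134081962) was the weakest of the 20, with a fold enrichment of 2.65 from 11 fragments.

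Whether peaks spanned these short genes whole was asked next. Every base of Jund and Ier2 lay inside 1 peak, which makes 2 of 10, against 0.378% of protein-coding genes. Short genes are covered more easily. Among genes no longer than Dusp1, the longest member, the share was 0.476%, and among those no longer than Fosb it was 1.35%. Judged on the principal transcript instead of the whole annotated gene, a choice made after seeing the data, Junb was covered too, which gave 3 of 10 against 0.419%. That share is not limited by length, and the median principal transcript was 3286 bp in the members and 15770 bp in all protein-coding genes. The other 7 genes were covered for between 7.33% (Dusp1) and 63.4% (Btg2) of their length. Over the 10 genes the median was 52.2% of the gene, compared with 2.79% in bound genes, whose median length of 23401 bp was well above the 4093 bp of the members.

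Summits of the members were not confined to promoters, and no share over all Mof+/+ peaks is given beside these positions. Of the 20 Mof+/+ summits, 9 lay at or past the start site and 11 upstream of it. By annotation 8 were upstream of the gene, 4 in the coding sequence, 2 in a 5′ UTR, 1 in an intron, 3 in an intron of another transcript and 2 beyond the end of the gene. The strongest summit was at or past the start in 6 genes, namely Junb, Jund, Egr1, Ier2, Dusp1 and Btg2, and upstream in Fos, Fosb, Jun and Atf3.

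By fold enrichment of the strongest peak the order was Jund (8.18), Btg2 (6.46), Ier2 (6.00), Dusp1 (5.74), Jun (5.53), Atf3 (5.09), Junb (5.03), Fos (4.87), Egr1 (4.83) and Fosb (4.09). The median was 5.31, and the median of bound genes was 3.98 (interquartile range 3.38 to 4.87). Width separated the members more: their median was 2702 bp, from 695 bp at Fos to 6898 bp at Jund, compared with 828 bp (503 to 1325) in bound genes. Fos was narrower than most bound genes, with 41.0% of them narrower still, whereas Junb, Jund, Ier2 and Atf3 were each wider than at least 98.1%. Fosb combined a wide peak, with 92.7% of bound genes narrower, with a middling fold enrichment, with 52.0% weaker.

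**Figure D2:**
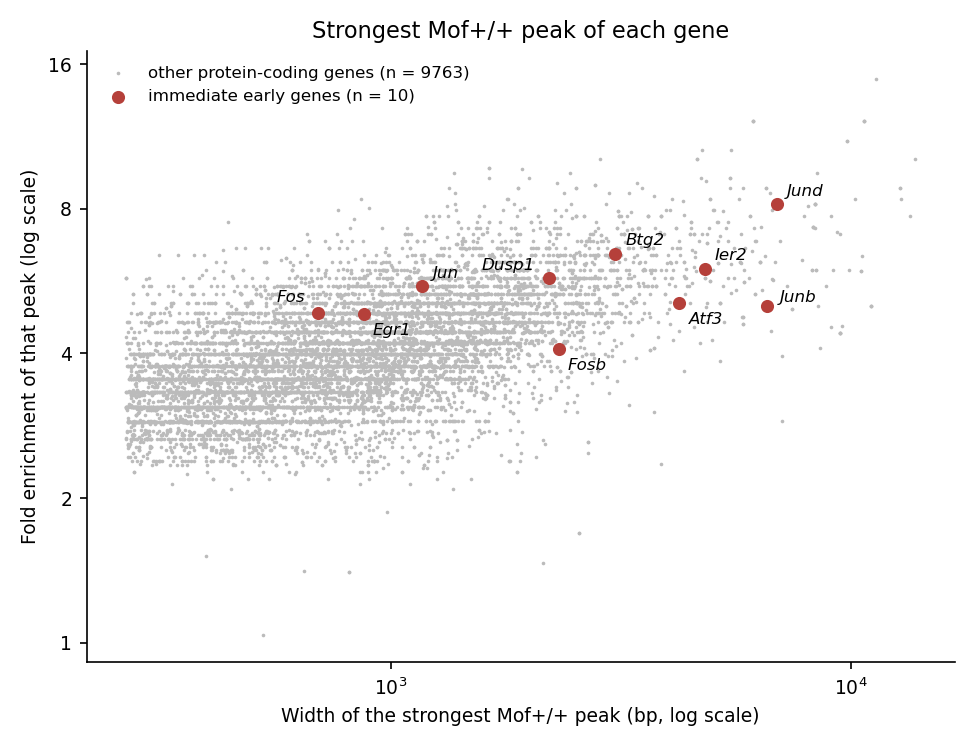
Fold enrichment against width of the strongest Mof+/+ peak, both on log scales, for the 10 members (red) and the other bound protein-coding genes (grey). Jund, Junb, Ier2 and Atf3 lie at the wide end, Fos and Egr1 within the bulk, and Fosb has the lowest fold enrichment of the 10.

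The number of fragments behind each peak was small. It was solved from the deposited fold enrichment and p-value and ranged over the strongest peaks from 21 (95% Poisson interval 13.0 to 32.1) at Fos to 36 (25.2 to 49.8) at Jund. Btg2 had 29 (19.4 to 41.6), Ier2 28 (18.6 to 40.5), Dusp1 26 (17.0 to 38.1) and Fosb 23 (14.6 to 34.5). These intervals cover counting error of the fragments only, and all 10 overlapped. They leave out the background, so they do not give the uncertainty of the order by fold enrichment above. Bound genes had a median of 19 fragments over the strongest summit and the members 25.

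**Figure D3:**
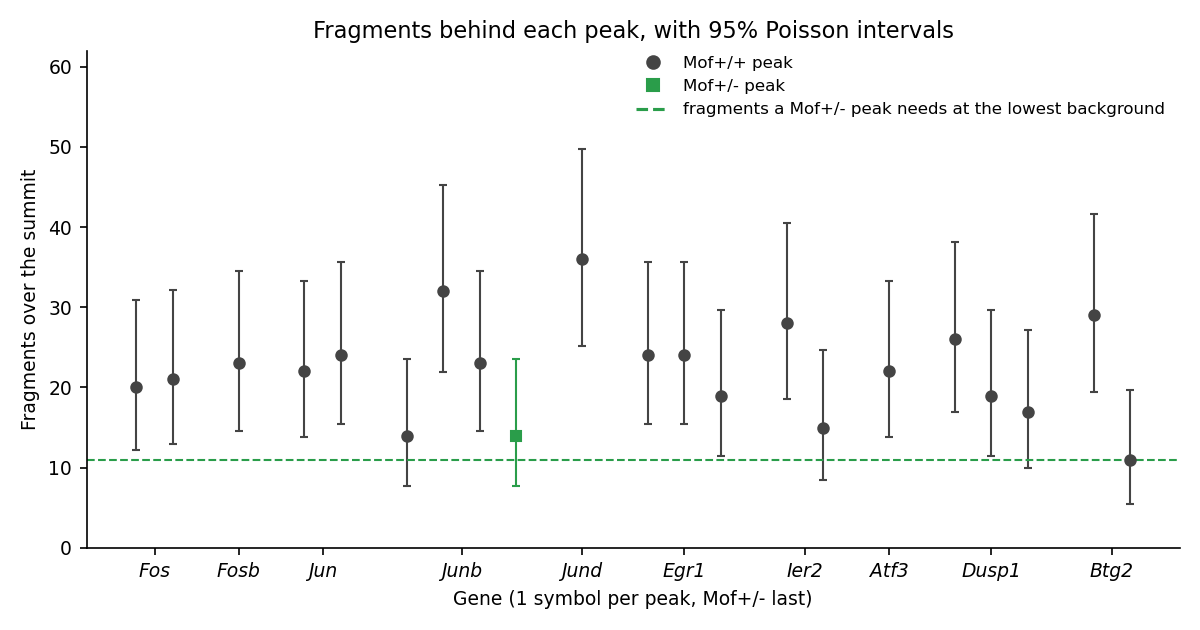
Fragments over the summit of every peak at the 10 genes, with 95% Poisson intervals, in Mof+/+ (grey circles) and Mof+/- (green square). The dashed line marks the 11 fragments that suffice, at the lowest Mof+/- background, for the weakest p-value listed. Mof+/+ values are not scaled for depth. All but the lowest Mof+/+ point, at Btg2, lie above the line.

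In the Mof+/- list, 1 of the 10 genes had a peak, against 1.89% of protein-coding genes. At Junb (chr8:84978038-84978352) this peak was 315 bp wide with a fold enrichment of 3.71, a −log10 p of 6.09 and a −log10 q of 2.06. The Mof+/+ peak around it was far wider, and the Mof+/- peak covered 4.80% of its width. Their summits lay 62 bp apart, both in the coding sequence. The summit held 14 fragments (7.65 to 23.5) in Mof+/- and 32 (21.9 to 45.2) in Mof+/+, over backgrounds of 3.05 and 5.57 fragments. The 50 bp on either side of the Mof+/- summit, all coding sequence, are printed because they are the only site at these genes found in both lists, and the single RGCY site is in capitals.
Junb (chr8:84978254-84978354, minus strand, positions 364 to 464): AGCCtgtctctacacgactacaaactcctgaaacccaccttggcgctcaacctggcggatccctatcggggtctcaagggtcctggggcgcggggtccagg

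Of the 20 Mof+/+ peaks, the 1 at Junb overlapped a Mof+/- peak, and 2.44% of all Mof+/+ peaks on the assembled chromosomes did so. Jund, Btg2, Ier2 and Dusp1, the 4 genes with the highest fold enrichment, had no Mof+/- peak. The nearest one was 281562 bp away for Dusp1, 315186 bp for Ier2 and 14277422 bp for Jund. A gene missing from the list is one where no peak passed the cutoff, and bound MOF below it would not be listed. The lowest background was 3.52 fragments in Mof+/+ and 2.26 in Mof+/-, and the weakest −log10 p was 3.25 and 4.72. At the lowest background a Mof+/- peak needed 11 fragments, a fold enrichment of 3.68. The part of depth in the missing peaks was not tested. The scaling given next is a description that leaves out counting error.

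To set this limit against the members, the Mof+/+ values were held to the Mof+/- cutoff, a comparison added after seeing the data. Without scaling, 19 of the 20 peaks passed the weakest Mof+/- p-value, the upstream peak of Btg2 being the exception, and 68.6% of all Mof+/+ peaks on the assembled chromosomes passed it. With fragments and background multiplied by 0.642, the ratio of the lowest backgrounds, 15 of 20 passed, compared with 30.1% of all Mof+/+ peaks. For the p-value the scaled fragments were rounded down to whole numbers while the background was not, which can lower these shares. The strongest peak of each of the 10 genes passed, at 13.5 to 23.1 scaled fragments before rounding, as did that of 53.3% of bound genes. The peaks that fell below were Jun's downstream peak, Junb's peak in Prdx2, the upstream peaks of Ier2 and Btg2 and the most distant peak of Dusp1. The scaled numbers rest on 1 list per genotype. They start from peaks called in Mof+/+, with the strongest taken per gene, which favours passing.

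The start sites of the members were rich in CpG, with a median of 73.0 sites within 500 bp on either side (42 at Egr1 to 102 at Jund), compared with 66.0 in bound genes and 43.0 in all protein-coding genes. Their G+C content was 61.9%, against 59.6% and 55.3%. Peaks of the members held a median of 24.1 RGCY sites per kb, and all Mof+/+ peaks 21.2.

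The same rule was applied to a wider list of 60 other genes. It holds early response genes together with AP-1 partners and relatives, such as Atf2, Batf and Jdp2. The list was written with results on the whole series known, so its counts describe a chosen list and carry no test. Of the 60 genes 51 had a Mof+/+ peak, 9 a Mof+/- peak and 40 the start site covered. The shares of all protein-coding genes were 44.5%, 1.89% and 25.0%. The median fold enrichment of the strongest peak was 5.22, close to the 5.31 of the members. Among other transcription factors, AP-1 partners and relatives, 19 of 22 had a Mof+/+ peak. The count was 23 of 24 among feedback inhibitors, growth-arrest and RNA decay genes, and 9 of 14 among the remaining fast genes. Of the kinases and factors that act upstream of the response, 18 of 19 had a Mof+/+ peak, with a median fold enrichment of 4.06 beside 3.98 in bound genes. A Mof+/- peak was found at 0 of the 19, which at a share of 1.89% in all protein-coding genes says little about them.

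**Figure D4:**
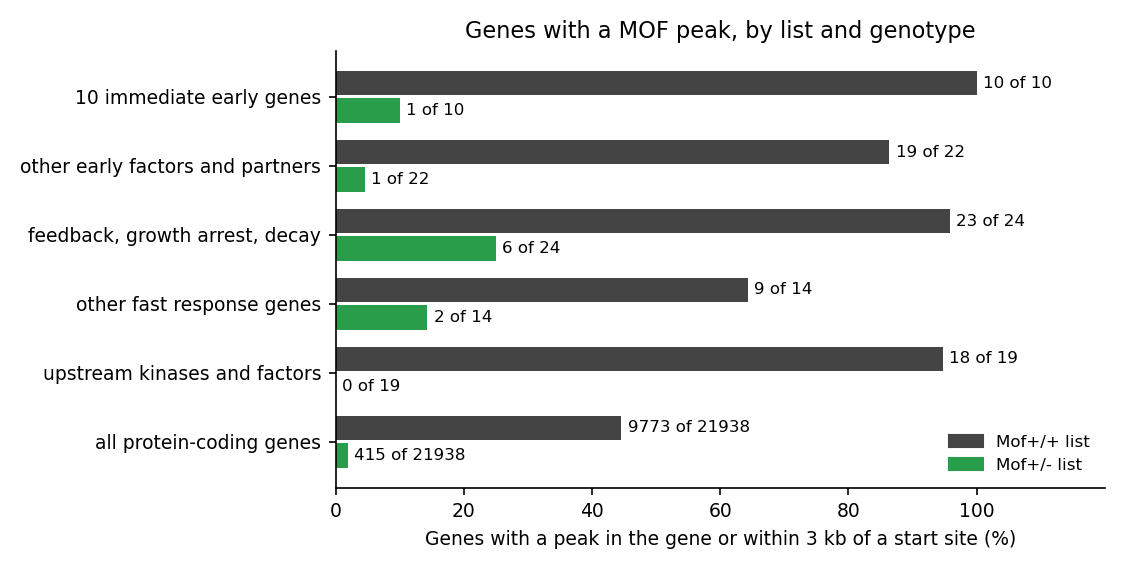
Percentage of genes with a MOF peak in the gene or within 3 kb of a start site, in the Mof+/+ list (grey) and the Mof+/- list (green). Bars show the 10 members, the wider list of early response genes, partners and relatives by role, upstream regulators and all protein-coding genes. Numbers beside the bars are counts. All 10 members, 44.5% of protein-coding genes and 18 of 19 upstream regulators had a Mof+/+ peak.

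The highest fold enrichment in this wider list was that of Zfp36l2, which promotes decay of AU-rich RNAs, at 11.1 from 49 fragments, followed by Klf2, a zinc-finger factor, at 10.6 from 47 and Dusp2, a MAP kinase phosphatase, at 9.29 from 41. All exceeded Jund. The 9 with a Mof+/- peak were Zfp36, Zfp36l1 and Zfp36l2, the MAP kinase phosphatases Dusp4 and Dusp6, the stress factor Atf4, Ier5, the small GTPase Rhob and the survival factor Mcl1. Their strongest Mof+/- peaks ranged from a fold enrichment of 3.68 at Dusp6 to 5.42 at Zfp36l2, and that of Junb, at 3.71, was near the low end.

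Among the other genes that 1 peak covered from end to end, 81 in number, those nearest to the members' medians in fold enrichment, peak width and gene length were Myl6, Pgam2, Zfp513, Gpsm3 and Id3. The distance, in units of the SD of each log2 measure over these genes, ran from 0.522 for Myl6 to 0.910 for Id3. Myl6 had a fold enrichment of 5.31 over 3954 bp and Id3, an inhibitor of DNA binding that is also on the list of fast genes, 6.64 over 3136 bp.

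The tissue label was checked on marker genes. Over all protein-coding genes 44.5% had a Mof+/+ peak, 25.0% had the start site covered and 1.89% had a Mof+/- peak, and lists this short can be read only roughly against these shares. Of 8 adipocyte markers 7 had a Mof+/+ peak, Lep being without, and 0 had the principal start site covered, which was covered in 2 of 5 B cell, 2 of 5 T cell, 1 of 4 macrophage and 1 of 4 endothelial markers. All 5 B cell markers and 4 of 5 T cell markers had a peak. The count was 1 of 4 for macrophage, 1 of 4 for endothelial, 0 of 3 for mesothelial and 0 of 4 for liver markers. In the Mof+/- list only Pax5, a B cell factor, had a peak among them, and like Lep it is named after its values were seen. Peaks do not measure expression, and the part of the immune cells in the signal at the early response genes was not tested.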

How the data were processed

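MOF ChIP-seq peaks of visceral white adipose tissue were analysed as 1 list for each genotype. According to the study's methods, the authors mapped paired-end reads to GRCm38 with snakePipes and called peaks with MACS2, version 2.1.1.20160309.3 in the submitters' processing notes, against input DNA at a q-value of 0.1. The lists were assigned to genotypes by name. The deposited fold enrichment is the caller's ratio of fragments over the summit to its background, and the same caller made the deposited −log10 p-value. Its q-value was deposited as a score on a −log10 scale. The deposited summit position was used as a coordinate. The integer display column and the H3 libraries were not used here. Depth per library is not given in the lists. Whole fragments and background at each summit were therefore solved from fold enrichment (with the caller's pseudocount of 1) and p-value, to within 0.001 in −log10 p, which succeeded for 99.98% of Mof+/+ and 99.45% of Mof+/- peaks. The median summit held 16 and 14 fragments. Poisson intervals are exact. Coordinates are GRCm38, counted from 1, with sequence from RefSeq's GRCm38 patch 6 and genes from GENCODE M21, read with Python 3.11.15, pysam 0.24.0 and scipy 1.17.1. The principal transcript was the one of lowest APPRIS class, then of longest coding sequence. Named genes were all 10 members, genes sharing their peaks, the genes of the wider list with a Mof+/- peak and its 3 highest by fold enrichment, and the 5 end-to-end covered genes most like the members. The members and lists were chosen with earlier results of these data known. Solving and overlap steps were tested on simulated data. Alternatives covered the window, q-value, p-value cutoff, joining of peaks, coverage and overlap rules.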

Additional observations from a re-analysis of the deposited data

How the results depend on the processing

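For 8 results, 35 alternatives were computed and 33 left the count or median as it was, or within 1.5 times of it for counts and within 1 SD over the members for medians (1.14 in fold enrichment, 2265 bp in width). The 10 of 10 genes with a Mof+/+ peak held under every window, q-value, p-value cutoff and joining rule tried. The Mof+/- result rested on 1 peak: with q of at most 0.001 the number of members with a Mof+/- peak was 0, and with an overlap of 50% of both peaks required the number of shared peaks was 0. The second follows from the widths of the peaks, and the first from the −log10 q of 2.06 of the Junb peak. Genes covered end to end rose from 2 to 3 when 80% of the gene was enough, when peaks within 1000 bp were joined, or for the principal transcript. The median fold enrichment lay between 4.46 and 5.31, the median width was 3178 bp with joined peaks, and the wider list held 49 to 51 genes with a Mof+/+ peak and 7 to 9 with a Mof+/- peak. No paired analysis was possible because the peak lists analysed here name no replicate, and runs without 1 replicate could not be made from them. The study labels 2 MOF libraries per genotype, whose separate signal was not analysed here. At the lowest background a Mof+/- peak needed 11 fragments, and weaker binding was not detectable.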
